A study of Mus musculus with 20 samples.

Results

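Of 18531 regions of histone H3 lysine 27 acetylation (H3K27ac) built from 6 peak lists of RAW264.7 cells, 292 (1.58% of all regions tested) appeared with RANKL and were still listed when the BET inhibitor I-BET was given with RANKL. A consensus region was a stretch where at least 2 lists had a peak, out of the 6 from untreated, RANKL and RANKL+I-BET cells, replicates 1 and 3 only, with touching stretches merged. The 292 regions were chosen by measured values, namely a peak overlap of at least 1 bp in both RANKL lists and both RANKL+I-BET lists and in neither untreated list. Their presence and absence in these 6 lists is therefore a description and was not tested. Fold enrichment, width and covered length come from the same lists as the rule and are described in the same way.

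RAW264.7 is a mouse macrophage line of monocytic origin. All samples carry the label bone marrow as their source, and no genetic change was labelled in any of them. Untreated cells had no labelled time. RANKL cells received RANKL at 50 ng/ml, RANKL+I-BET cells received RANKL at 50 ng/ml and I-BET at 500 nM, and I-BET cells received I-BET at 500 nM alone, each for 4 h. Untreated, RANKL and RANKL+I-BET each had 3 libraries numbered 1 to 3, I-BET alone had 1 library numbered 3, and the 10 input DNA samples were not analysed here. The labels name 1 cell line and state no separate cultures, so the spread between libraries may be technical.

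H3K27ac marks active promoters and enhancers, and new acetylated sites appear when a cell answers a signal. RANKL, a cytokine of the TNF family, binds the receptor RANK on macrophage precursors, activates NF-kB and MAP kinases and, through c-Fos and calcium signals, induces NFATc1, the transcription factor that drives osteoclast formation. BET proteins read acetylated histones and recruit the transcription elongation machinery, and I-BET compounds displace them from the acetyl groups without removing the acetyl groups directly.

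Among the 292 regions, 56 (19.2%) contained a transcription start of the RefSeq promoter table, against 31.2% of all consensus regions, 45.3% of the 9553 regions held by all 6 lists and 3.93% of the 331 regions gained with RANKL and absent from both RANKL+I-BET lists. That table is incomplete, so the counts are lower limits. These classes differ in region width, as given below, and the part of width in these shares was not tested. The windows below run from 250 bases before to 50 after an annotated start, come from RefSeq (GRCm38.p6), lie wholly inside a region of the set, and show the DNA of 5 genes with roles in immunity or transcription and of Cdk2ap2, the second strongest region by deposited p-value. They were picked after their values were seen. Il1rn encodes the interleukin-1 receptor antagonist (chr2:24345121-24345420, plus strand). Isg20 encodes an interferon-induced RNA exonuclease (chr7:78913515-78913814, plus strand). Nod2 encodes a cytosolic sensor of bacterial cell wall fragments (chr8:88647097-88647396, plus strand). Casp4 encodes the inflammatory caspase that senses lipopolysaccharide (chr9:5308599-5308898, plus strand). Ttf2 encodes a transcription termination factor (chr3:100969614-100969913, minus strand). Cdk2ap2 encodes a CDK2-associated protein (chr19:4097101-4097400, plus strand). Capitals mark matches on either strand to the motifs listed after the sequences.
Il1rn: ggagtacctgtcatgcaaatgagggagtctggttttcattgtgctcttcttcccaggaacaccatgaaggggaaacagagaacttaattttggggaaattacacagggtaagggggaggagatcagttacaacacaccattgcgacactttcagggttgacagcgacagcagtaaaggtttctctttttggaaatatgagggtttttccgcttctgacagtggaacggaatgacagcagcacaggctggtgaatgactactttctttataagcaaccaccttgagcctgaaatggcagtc
Isg20: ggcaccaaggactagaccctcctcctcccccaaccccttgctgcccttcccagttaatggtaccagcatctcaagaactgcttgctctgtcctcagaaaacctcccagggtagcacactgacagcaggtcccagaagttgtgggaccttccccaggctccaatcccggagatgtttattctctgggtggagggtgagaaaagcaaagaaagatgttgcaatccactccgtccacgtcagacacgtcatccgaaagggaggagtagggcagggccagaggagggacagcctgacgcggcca
Nod2: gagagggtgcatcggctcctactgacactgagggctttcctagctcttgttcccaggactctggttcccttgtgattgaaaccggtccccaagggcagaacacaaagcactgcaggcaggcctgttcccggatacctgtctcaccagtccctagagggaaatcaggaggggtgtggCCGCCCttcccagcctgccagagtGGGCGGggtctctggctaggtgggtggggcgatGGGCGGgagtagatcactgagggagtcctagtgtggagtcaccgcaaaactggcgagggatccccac
Casp4: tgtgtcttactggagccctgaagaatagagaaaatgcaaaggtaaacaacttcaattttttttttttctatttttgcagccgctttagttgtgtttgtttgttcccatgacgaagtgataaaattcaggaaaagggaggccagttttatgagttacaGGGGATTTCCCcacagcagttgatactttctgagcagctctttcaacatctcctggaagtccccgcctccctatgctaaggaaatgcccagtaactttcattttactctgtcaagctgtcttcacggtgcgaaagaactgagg
Ttf2: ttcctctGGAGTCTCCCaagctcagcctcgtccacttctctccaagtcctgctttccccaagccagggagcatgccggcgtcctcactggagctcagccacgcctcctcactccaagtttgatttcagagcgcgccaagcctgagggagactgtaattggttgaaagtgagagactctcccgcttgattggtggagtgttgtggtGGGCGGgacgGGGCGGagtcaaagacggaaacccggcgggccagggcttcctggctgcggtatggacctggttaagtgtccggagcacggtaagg
Cdk2ap2: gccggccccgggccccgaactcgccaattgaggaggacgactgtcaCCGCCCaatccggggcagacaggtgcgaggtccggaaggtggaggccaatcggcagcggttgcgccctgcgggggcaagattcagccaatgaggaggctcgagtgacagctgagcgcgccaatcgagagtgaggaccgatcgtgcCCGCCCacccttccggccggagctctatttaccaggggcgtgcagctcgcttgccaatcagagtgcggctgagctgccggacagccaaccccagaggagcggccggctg

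The motifs searched on both strands were NF-kB (by name), AP-1 (TGANTCA), CRE (TGACGTCA), PU.1 (GAGGAAGT), ISRE (by name), E-box (CACGTG), Sp1 (GGGCGG) and NRF1 (by name). Over the 70 windows of 60 genes whose start lay in a region of the set, 4 held the NF-kB motif (5.71%, against 4.81% of the 21263 windows of the table), namely those of Ttf2 and Zfp850 and 2 overlapping windows of Casp4 with the same site. The Casp4 match reads GGGGATTTCCC in the run above, and the window of Nod2 holds only Sp1 letters, on both strands. PU.1, the lineage factor of macrophages, matched 5 windows (7.14%, against 3.13%), of which 2 are 1 sequence listed under Cmc4 and Mtcp1, and the interferon-response motif ISRE matched 3 (4.29%, against 3.35%), with neither the Isg20 nor the Il1rn window among them. AP-1 matched 2 windows (2.86%, against 6.99%), CRE matched 1 (1.43%, against 2.23%) and the E-box matched 4 (5.71%, against 7.84%). Sp1 letters, common in CpG-rich promoters, were in 45 windows (64.3%, against 46.2% of all windows and 67.5% of the 5791 windows in regions held by all 6 lists). The median GC content of the 70 windows was 60.0%, between the 56.3% of all windows and the 62.3% of those in regions held by all 6 lists. A match describes letters only, and no binding was measured.

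The number of peaks in the 6 lists ran from 13613 to 17794, and the covered length from 16.1 to 25.9 Mb. Untreated replicate 1 was the shortest in covered length, and 57.7% of its peaks had a deposited -log10 q under 2, against 15.8% to 20.9% in the other 5. Macrophage markers such as Csf1r, Cd14 and Spi1 had a gene-end peak, 1 kb or less from an end, in 8 to 10 of 10 genes in each of the 6 lists, and lymphocyte markers in 1 or 2 of 14. RANKL replicate 2 stood apart with 141905 peaks over 184.6 Mb, with peaks at 13 of 14 lymphocyte, 8 of 14 fibroblast and osteoblast, and 14 of 18 absent-tissue markers. RANKL+I-BET replicate 2 was the shortest of all, with 6041 peaks over 3.44 Mb and none with a -log10 q under 2. Neither took part in choosing the regions. The lists hold no read counts, so sequencing depth is unknown and no limit of detection can be given.

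The fold enrichment that the authors deposited for each peak, a linear ratio of signal over the local background, barely tracked from one list to another at the same places. Over the 292 regions, the Spearman correlation of the fold values was 0.030 for the 2 RANKL lists, -0.014 for the 2 RANKL+I-BET lists and 0.15 for RANKL against RANKL+I-BET replicate 1. Over the 9553 regions held by all 6 lists it was 0.080 between the RANKL lists. The base pairs covered by peaks had a Spearman correlation of 0.44 between the RANKL lists, 0.49 between the RANKL+I-BET lists, 0.62 between RANKL and RANKL+I-BET replicate 1 and 0.59 between those of replicate 3. Region width, which is built from the same lists, caps the covered length and fixes part of these values. The share of a region that was covered gave -0.36 between the RANKL lists, -0.23 between the RANKL+I-BET lists and -0.00090 and 0.11 for RANKL against RANKL+I-BET in replicates 1 and 3. The width of the widest overlapping peak, which the region does not cap, gave 0.23, 0.37, 0.50 and 0.41 for the same pairs. These correlations are across regions within shared libraries and are descriptions. An order of single regions by fold or p therefore says little beyond the list it was read from, and differences in covered length between lists at 1 region are given below as values only.

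**Figure D1:**
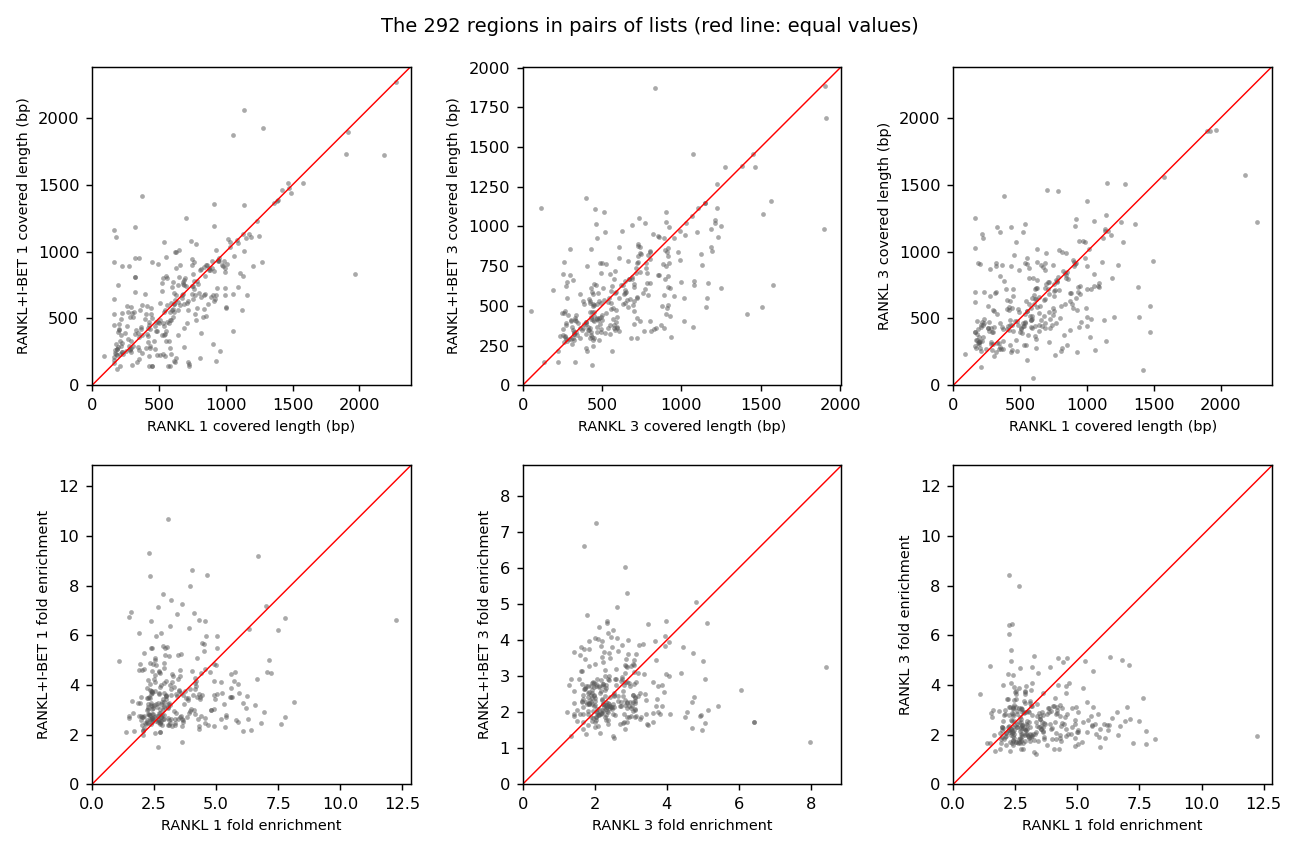
Each point is 1 of the 292 regions; the upper panels plot base pairs covered by peaks and the lower panels the deposited fold enrichment, in pairs of lists with the red line at equal values. Covered length, capped by region width, has a Spearman correlation of 0.44 to 0.62 in the pairs drawn, and fold one of 0.030 to 0.15.

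The median covered length was 608 bp in RANKL replicate 1 and 586.5 bp in RANKL replicate 3, and 600.5 bp and 548.5 bp in RANKL+I-BET replicates 1 and 3. The median ratio of RANKL+I-BET to RANKL covered length within a region was 0.997 in replicate 1 and 0.952 in replicate 3, against 1.00 and 0.935 in the regions held by all 6 lists. The ratio of fold enrichment had medians of 1.08 and 0.988, against 1.11 and 0.979 in the regions held by all 6 lists. Both classes were required to have a peak in both RANKL and both RANKL+I-BET lists, which fixes part of each ratio. The ratios are therefore descriptions, and their nearness to 1 was not tested.

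Covered length was lower in both RANKL+I-BET lists than in either RANKL list at 59 regions (20.2%), against 21.6% of the regions held by all 6 lists, and higher at 31 (10.6%, against 10.5%). Both shares lay near the background. The fold ratio was above 1 in both replicate numbers in 80 regions (27.4%, against 30.2% of the regions held by all 6 lists) and under 1 in both in 60 (20.5%, against 19.7%), again near the background. It exceeded 2 in both numbers in 2 regions and was under 0.5 in both in 0. The matching shares over the regions held by all 6 lists were not computed, so these 2 counts are no result about the set. The deposited fold had a median of 3.06 in RANKL replicate 1 and 2.41 in replicate 3, and of 3.44 and 2.41 in RANKL+I-BET replicates 1 and 3. The median -log10 p was 4.54 and 4.68 with RANKL and 4.66 and 4.12 with RANKL+I-BET. These medians lay close to the medians over every peak of each list (fold of 3.11, 2.54, 3.47 and 2.50), while the peaks at these places were narrower, with a median width of the widest overlapping peak of 583 to 693 bp against 1014 to 1167 bp over all peaks. The rule drops any region that an untreated peak touches, a filter that the medians over all peaks lack, and its part in this difference was not tested.

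**Figure D2:**
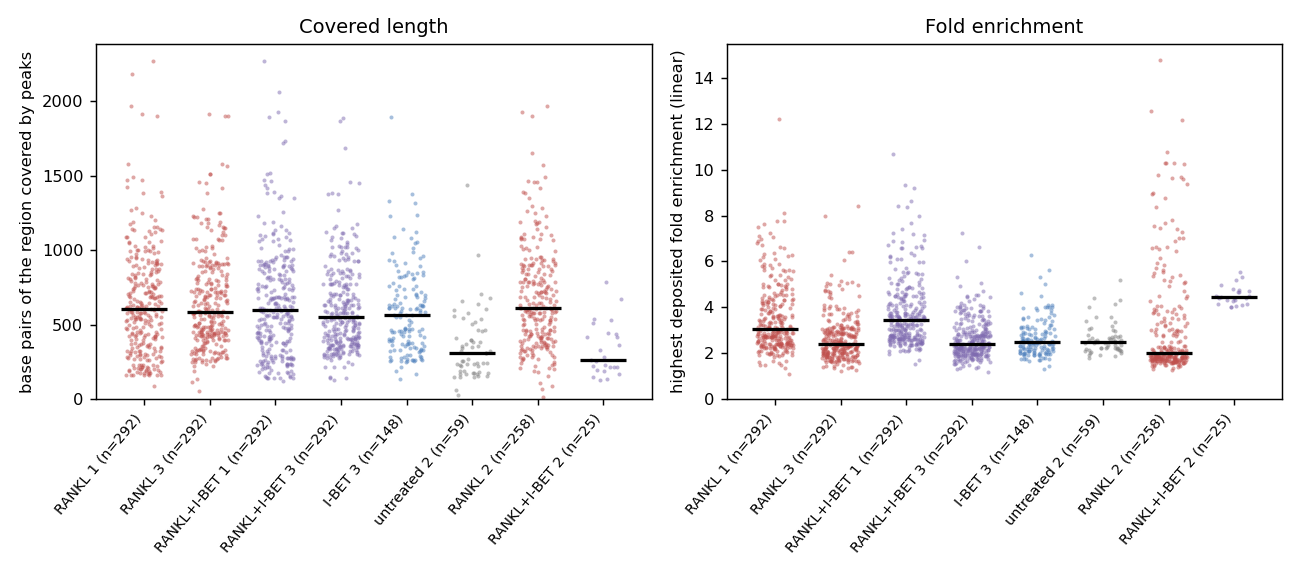
Each point is a region held by the list named below it (number of regions in brackets), with base pairs covered by peaks on the left and the highest deposited fold enrichment on the right, both linear; bars are medians. The 4 lists used by the rule have median covered lengths of 548.5 to 608 bp, while untreated replicate 2 and RANKL+I-BET replicate 2 cover 313 and 261 bp in the few regions they hold.

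The 4 lists outside the rule give an independent reading of presence. I-BET alone held 148 of the 292 regions (50.7%, 95% Wilson interval 45.0 to 56.4), against 69.7% of all consensus regions, 94.3% of the regions held by all 6 lists and 13.6% of the gained regions absent with RANKL+I-BET. The interval covers counting over regions only, and 1 library without a replicate stands behind it. Presence needs only 1 bp of overlap, and the classes differ in width. The median was 258 bp in the gained regions absent with RANKL+I-BET, 788.5 bp in the set and 1727 bp in the regions held by all 6 lists. The part of width in these shares, and in those of the lists numbered 2 below, was not tested. In the 148 regions the I-BET peaks had a median covered length of 563 bp. The set divided into regions listed in I-BET cells without RANKL and regions that were not. Absence from both untreated lists of the rule was required to enter the set, so it gives no contrast with the I-BET list. Whether I-BET alone changed acetylation at these regions was not tested.

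Untreated replicate 2, a short list, held 59 of the 292 (20.2%), against 46% of all regions and 3.63% of the gained regions absent with RANKL+I-BET. For these 59 regions, among them those at Cdk2ap2, Mgat1 and Nfatc1, a library labelled untreated did list a peak, with a median covered length of 313 bp. RANKL replicate 2 held 258 (88.4%), against 87.5% of all regions, a share near the background of that very long list. RANKL+I-BET replicate 2 held 25 (8.56%), against 28.5% of all regions and 1 of the 331 gained regions absent with RANKL+I-BET.

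The whole pattern of the rule, held with RANKL and with RANKL+I-BET and not in untreated cells, recurred in the libraries numbered 2 at 13 regions (4.45%), against 3.92% of all regions, so the share was near the background. RANKL replicate 2 with no untreated replicate 2 peak was found at 200 regions (68.5%), against 42.7% of all regions and 66.8% of the gained regions absent with RANKL+I-BET. The 13 rest on the 3 libraries numbered 2 and the 200 on RANKL and untreated replicate 2. All 3 stand apart in size, since untreated replicate 2 held 9893 peaks over 7.79 Mb, 61.8% of them with a -log10 q under 2, and the part of list size in these counts was not tested. None of the 4 lists held 12 regions (4.11%, against 6.71% of all regions and 27.2% of the gained regions absent with RANKL+I-BET). Among the 12 were those at Arnt, Snx10, Edn1 and Osbp, which were named after their values were seen.

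**Figure D3:**
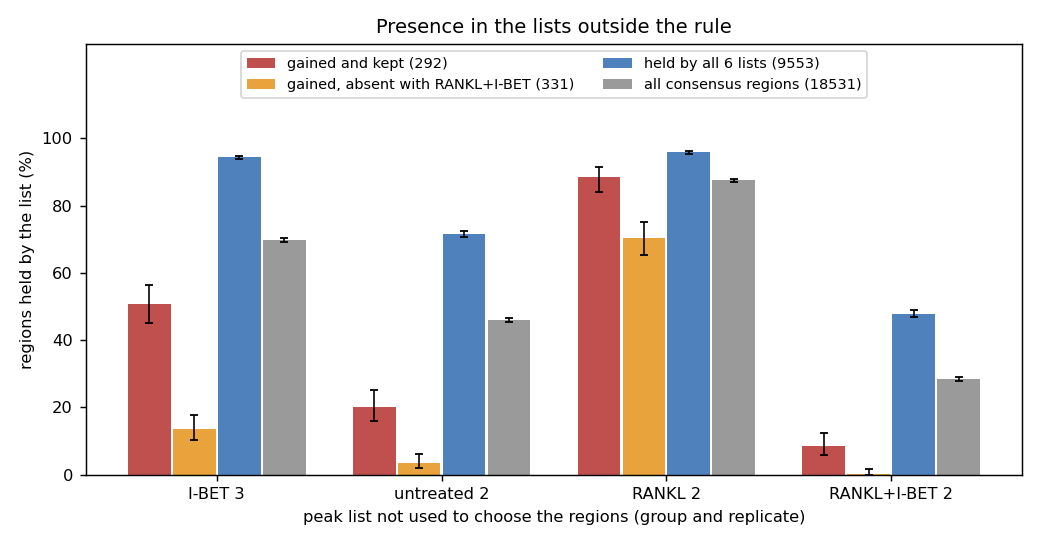
Bars give the share of regions (%) held by each of the 4 lists that were not used to choose them, for 4 classes of region with their numbers in brackets; whiskers are 95% Wilson intervals over regions. In I-BET cells the gained and kept regions (50.7%) sit between the gained regions absent with RANKL+I-BET (13.6%) and those held by all 6 lists (94.3%). Median region width runs in the same order, and its part in these shares was not tested.

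Of 1121 regions gained with RANKL in both lists (6.05% of all), the 292 made up 26.0%. Another 498 (44.4%) were held by 1 RANKL+I-BET list, 434 of them by replicate 1 and 64 by replicate 3, and 331 (29.5%) by neither. Regions lost with RANKL under the same counting numbered 49 (0.264%). The reverse of the rule, a region in both untreated lists and in none of the other 4, was met by 23 regions (0.124%). Of the 544 regions (2.94%) held by both RANKL+I-BET lists and neither untreated list, the set made up 53.7%.

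The boundary of the rule was thin in places. The closest untreated peak lay 9 bp from the region near Ola1, an Obg-like ATPase, 18 bp from that in Pef1, a calcium-binding protein, 53 bp at Rab29, a small GTPase of the Golgi, 72 bp at Themis2, a signalling adaptor of macrophages and B cells, and 75 bp in Dock10, a guanine nucleotide exchange factor. Just outside it, an untreated overlap of 52 bp kept out a region near Gm826, and overlaps of 72, 79, 90 and 110 bp kept out those at Slc23a2, Prkci, Spats2 and Ago4. Over the whole set the nearest peak of untreated replicates 1 or 3 was a median of 13854 bp away, with 21 regions (7.19%) within 1 kb and 87 (29.8%) within 5 kb. In the gained regions absent with RANKL+I-BET the median was 7638 bp, with 22.4% within 1 kb and 44.1% within 5 kb. The set thus lay farther from untreated peaks than that class, and the part of region width was not tested. Of 12129 regions held by both RANKL and both RANKL+I-BET lists, 2284 were held by 1 untreated list, 1756 by replicate 3 alone and 528 by replicate 1 alone.

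Their width had a median of 788.5 bp (210 to 2271), against 1727 bp in the regions held by all 6 lists, 1151 bp in all regions and 258 bp in the gained regions absent with RANKL+I-BET. Width follows in part from the number of lists that build a region, since 4 lists can contribute here and 2 in the class absent with RANKL+I-BET. The 5 widest lay in Nsmce2 (2271 bp), a SUMO ligase of DNA repair, Pacsin2 (2235 bp), which bends membranes in endocytosis, Dock10 (2062 bp), at Adprh (1965 bp), which removes ADP-ribose from arginine, and in Iqgap1 (1927 bp), a scaffold that links actin to Rac and Cdc42.

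Either end of a protein-coding gene lay 1 kb or less from 106 regions (36.3%, 31.0 to 42.0), compared with 44.8% of all regions, 56.5% of those held by all 6 lists and 22.7% of the gained regions absent with RANKL+I-BET. Another 119 (40.8%) lay inside a gene and over 1 kb from its ends, compared with 33.9% of all regions, and 67 (22.9%, compared with 21.2%) lay outside genes and over 1 kb from an end. In all, 219 regions (75.0%, near the 77.3% of all regions) overlapped a gene, and 12 (4.11%, compared with 2.80%) had no gene within 100 kb. The part of region width in these shares was not tested. Exons and introns were not analysed here. The 12 regions on chromosome X were 3.28% of the consensus regions there, the highest share of any chromosome, and the lowest was 0.891% on chromosome 14, with 6 regions.

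**Figure D4:**
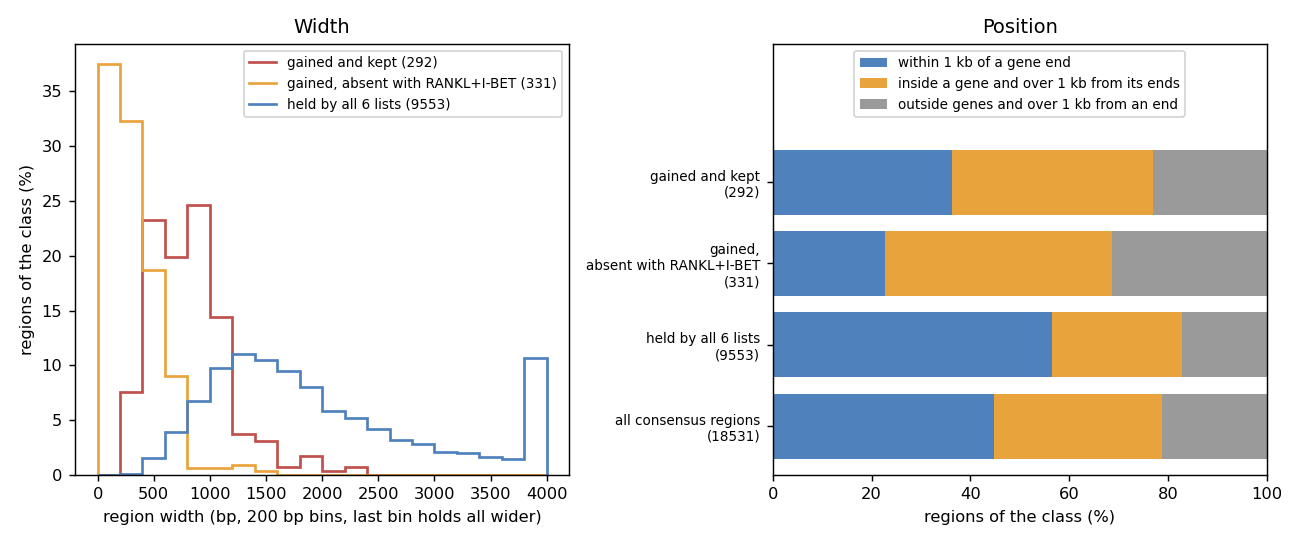
Left, the distribution of region width in 200 bp bins as a share of each class (%), with all wider regions in the last bin; right, the share of each class (%) within 1 kb of a gene end, inside a gene or outside genes. The gained and kept regions have a median width of 788.5 bp and 36.3% of them lie at gene ends, between the gained regions absent with RANKL+I-BET and those held by all 6 lists in both respects. The part of width in the gene-end shares was not tested.

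The regions had 272 nearest genes within 100 kb, 2.77% of the 9832 genes nearest to any consensus region. For 146 of these genes (53.7%) neither untreated list had a gene-end peak, as for 21.9% of all 9832, and for 90 (33.1%, against 57.9%) both had one. Part of this follows from the rule, which admits no untreated peak in the region itself. Gene lists of the RANKL response, macrophages and BET biology held 20 genes of the set among the 285 list genes nearest to any region (7.02%). The lists were written with earlier results of these data known, so this share is a description and was not tested. The counts of single lists below stand beside the 2.77% above, rest on few genes each and are no result about a list. Nearness to a gene is not evidence that the region acts on it.

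Of the list of RANKL and NFATc1 transcription factors, 3 of 23 were nearest to a region of the set, namely Nfatc1, Mef2c and Creb5. The region near Nfatc1, the main driver of osteoclast formation, lay 1863 bp from the gene (chr18:80714935-80715621). Peaks covered 313 and 687 bp of it in RANKL replicates 1 and 3 and 549 and 679 bp in RANKL+I-BET replicates 1 and 3. Untreated replicate 2 covered 175 bp and the I-BET list held no peak there. The values with and without I-BET overlapped, and an untreated peak of the rule's lists lay 1512 bp away.

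Inside Mef2c, a MADS-box transcription factor, the region chr13:83651886-83652398 was covered over 281 and 431 bp with RANKL and 510 and 415 bp with RANKL+I-BET. The I-BET list covered 369 bp, and untreated replicate 2 held no peak. Creb5, a member of the CREB and ATF family that binds CRE sites, held a region deep in the gene, 160746 bp from an end (chr6:53447972-53449071). In it peaks covered 226 and 1100 bp with RANKL, 891 and 963 bp with RANKL+I-BET, and 674 bp with I-BET alone. RANKL and RANKL+I-BET replicate 2 covered 1100 and 512 bp and untreated replicate 2 none, so Creb5 was 1 of the 13 regions with the same pattern in the libraries numbered 2. Creb5 was also nearest to 2 gained regions absent from both RANKL+I-BET lists, 3974 and 13128 bp from the gene. Of the 272 genes, 18 (6.62%) were nearest to both kinds of region, among them Cdk6, Elmo1, Dock10 and Nsmce2. The matching share over the genes nearest to any consensus region was not computed, so this count is no result about these genes.

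NF-kB genes were represented by 1 of 25, Nfkbiz, the nuclear IkB protein that is induced by inflammatory signals. Its region lay 76594 bp from the gene (chr16:55733624-55734780) and was covered over 1091 and 734 bp with RANKL, 1061 and 1053 bp with RANKL+I-BET and 291 bp with I-BET alone. It too was listed in RANKL and RANKL+I-BET replicate 2 (326 and 415 bp) and not in untreated replicate 2. The gene itself had an untreated peak at a gene end in both lists. MAP kinase genes had 1 of 19, Dusp6, the phosphatase that dephosphorylates ERK. A region 863 bp from Dusp6 (chr10:99268353-99268792) was covered over 168 and 339 bp with RANKL and 187 and 440 bp with RANKL+I-BET, and the I-BET list had no peak there.

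Inflammatory cytokine genes had 2 of 13, Il1rn and Ccl4. Il1rn carried 2 regions 2900 bp apart. The one with the promoter shown above (chr2:24345059-24346571) was covered over 1469 and 397 bp with RANKL and 1513 and 1177 bp with RANKL+I-BET, and it had no peak in I-BET cells or in untreated replicate 2. The other (chr2:24341260-24342158) was covered over 845 and 803 bp with RANKL and 816 and 794 bp with RANKL+I-BET. It had no I-BET peak either, while untreated replicate 2 covered 682 bp of it. The nearest peak of untreated replicates 1 or 3 was 32684 and 28885 bp away, and neither end of Il1rn had a peak in those lists.

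Ccl4, a chemokine that attracts monocytes and T cells, had a region inside its annotated span (chr11:83657164-83658295). It was covered over 214 and 1132 bp with RANKL, 495 and 758 bp with RANKL+I-BET and 434 bp with I-BET alone. Interferon response genes had 1 of 18, Isg20, whose region (chr7:78913094-78914162) contains the promoter shown above. RANKL replicates 1 and 3 covered 472 and 1069 bp of it and RANKL+I-BET replicates 1 and 3 covered 274 and 1069 bp. In both conditions replicate 3 covered the whole region and replicate 1 a part, and I-BET cells and untreated replicate 2 had no peak.

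Nod2 was nearest to 2 regions, 2556 bp apart. The region at its start (chr8:88646865-88647759) was covered over 895 and 581 bp with RANKL and 879 and 720 bp with RANKL+I-BET, with 63 bp in untreated replicate 2. The second (chr8:88650316-88651240) was covered over 905 and 925 bp with RANKL and 309 and 614 bp with RANKL+I-BET, and an untreated peak lay 76 bp from it. In this second region both RANKL+I-BET values lay under both RANKL values, as at 20.2% of the set and 21.6% of the regions held by all 6 lists. Neither region had an I-BET peak. Casp4, named for the promoter above, held a region of 1390 bp at its start (chr9:5308374-5309763), covered over 1390 and 512 bp with RANKL, 1390 and 539 bp with RANKL+I-BET and 584 bp with I-BET alone. RANKL replicate 2, the longest list, held no peak there, and RANKL+I-BET replicate 2, the shortest, covered 436 bp.

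Macrophage identity genes and repressors of osteoclast formation had 2 of 26, Lyz2 and Rbpj. Lyz2, the lysozyme of myeloid cells, had a region 1905 bp from the gene (chr10:117274123-117275635), covered over 1153 and 1513 bp with RANKL, 1103 and 1079 bp with RANKL+I-BET and 1088 bp with I-BET alone. Both RANKL+I-BET values lay under both RANKL values at Lyz2, a pattern near its background share in the set. The Lyz2 gene ends had untreated peaks in both lists. Rbpj, the DNA-binding partner of Notch that restrains osteoclast formation, held a region inside the gene (chr5:53570484-53571113). Peaks covered 524 and 464 bp of it with RANKL, 379 and 630 bp with RANKL+I-BET and 352 bp with I-BET alone.

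Small GTPase and cytoskeleton genes had 3 of 23, Wasf2, Elmo1 and Arhgap26. Wasf2, the WAVE2 protein that drives branched actin at the leading edge, was covered over 888 and 606 bp with RANKL, 663 and 869 bp with RANKL+I-BET and 917 bp with I-BET alone (chr4:133173852-133174768). Elmo1, which acts with DOCK proteins to activate Rac, was covered over 620 and 278 bp with RANKL, 639 and 653 bp with RANKL+I-BET and 612 bp with I-BET alone (chr13:20127521-20128173). Both RANKL+I-BET values at Elmo1 lay above both RANKL values, as at 10.6% of the set and 10.5% of the regions held by all 6 lists. The region in Arhgap26, a GTPase-activating protein, was short (293 bp) and was covered over 165 and 293 bp with RANKL and 214 and 293 bp with RANKL+I-BET.

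Osteoclast function genes had 1 of 20 and ITAM and calcium genes 1 of 23. Snx10, a sorting nexin needed for bone resorption, held a region (chr6:51551324-51552022) covered over 162 and 699 bp with RANKL and 645 and 528 bp with RANKL+I-BET, and none of the 4 other lists had a peak there. Itpr1, the inositol trisphosphate receptor that releases calcium from the endoplasmic reticulum, was 3612 bp from a region (chr6:108554729-108555562) covered over 834 and 609 bp with RANKL and 678 and 804 bp with RANKL+I-BET. The I-BET list covered all 834 bp and untreated replicate 2 covered 326 bp. Among lysosome and vesicle genes, peaks in Rab27a, a GTPase of secretory granules, covered 442 and 266 bp with RANKL, 535 and 470 bp with RANKL+I-BET and 270 bp with I-BET alone. As at Elmo1, both RANKL+I-BET values lay above both RANKL values.

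Cell cycle genes had 2 of 22, the cyclin gene Ccnd3 and the kinase gene Cdk6, and MYC and ribosome genes 1 of 23, Mga, which pairs with MAX. The region in Ccnd3 was covered over 843 and 993 bp with RANKL and 686 and 787 bp with RANKL+I-BET, and that in Cdk6 over 816 and 1000 bp with RANKL and 388 and 653 bp with RANKL+I-BET. In these regions both RANKL+I-BET values lay under both RANKL values, as in those at Lyz2 and Nod2 above. The share of such regions in the set was near the background, so this marks no class of genes. Untreated replicate 2 covered 372 bp of the Ccnd3 region, and the I-BET list covered 456 bp of the Cdk6 region. Mga was covered over 1188 and 804 bp with RANKL, 1108 and 406 bp with RANKL+I-BET and 627 bp with I-BET alone. BET proteins, P-TEFb and acetyltransferases had 0 of 18 genes nearest to the set, lymphocyte markers 0 of 5, fibroblast and osteoblast markers 0 of 3 and absent-tissue markers 0 of 1. Only 2.77% of the genes nearest to any consensus region were nearest to the set. Lists this short can hold 0 at that share, so these counts show nothing about them.

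**Figure D5:**
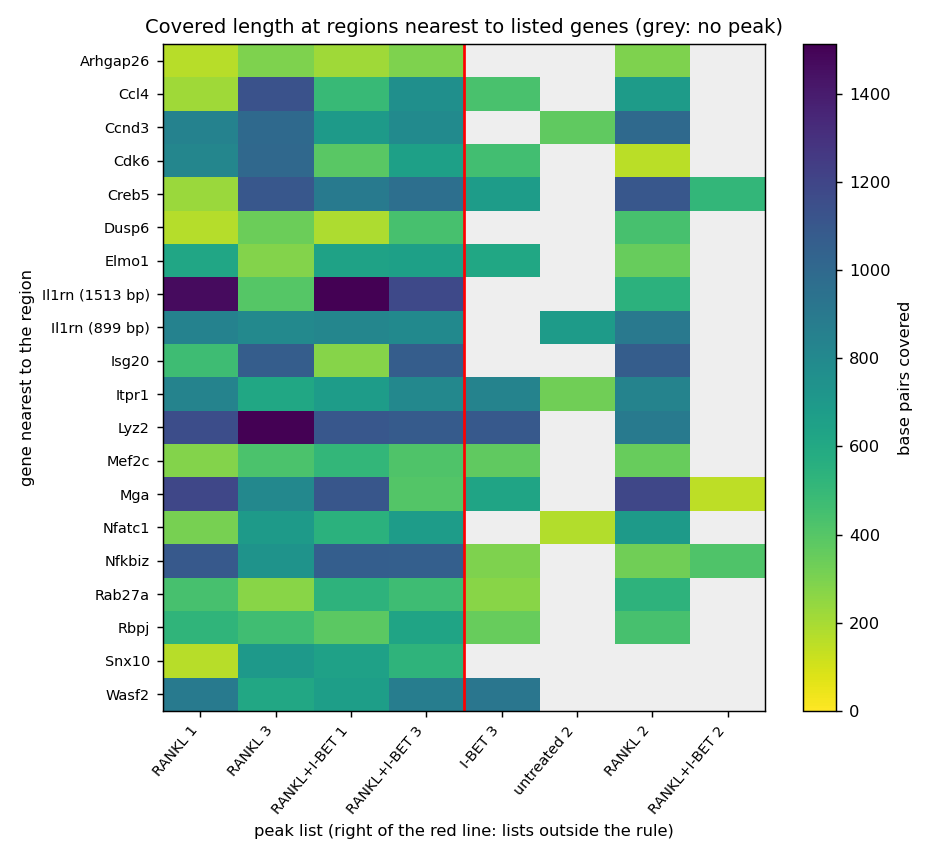
Each row is a region nearest to a listed gene that the text names and each column a peak list, with colour for the base pairs covered by peaks and grey for no peak; columns left of the red line are the 4 lists that chose the regions. Il1rn has 2 regions, neither with an I-BET peak, and only Creb5, Mga and Nfkbiz have a peak in RANKL+I-BET replicate 2.

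Ranked by the lowest deposited -log10 p over the 4 lists, the 25 strongest regions are named here, with the limit on such an order given above. First was a region of 310 bp in Chchd7, a mitochondrial protein, at 117 bp from the nearer of the gene's ends (chr4:3938957-3939266). Peaks covered 306 and 221 bp of the region with RANKL and 294 and 215 bp with RANKL+I-BET. Its deposited fold was 6.32 and 5.12 with RANKL and 6.24 and 4.47 with RANKL+I-BET, above the upper quartile of the set in each of the 4 lists. The rank was taken from the p-values of the same peaks, so these fold values add no separate support. Untreated replicate 2 covered 156 bp of this region and the I-BET list held no peak there. Second was Cdk2ap2, covered over 691 and 760 bp with RANKL and 747 and 579 bp with RANKL+I-BET. It was also covered over 604 bp in untreated replicate 2 and had a peak in each of the 4 lists outside the rule, as did the third, at Yipf5, a protein of the Golgi.

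Mitochondrial genes in the top 25 also included Slc25a44, a carrier of branched-chain amino acids, and Sod2, the manganese superoxide dismutase that NF-kB is known to induce. The Slc25a44 region (chr3:88424651-88425603) was covered over 353 and 818 bp with RANKL and over its full 953 bp in both RANKL+I-BET lists, with 846 bp in I-BET cells. The Sod2 region (chr17:13008001-13008781), 162 bp from the nearer end of the gene, was covered over 777 and 781 bp with RANKL, 489 and 644 bp with RANKL+I-BET and 271 bp with I-BET alone. In Sod2 both RANKL+I-BET values lay under both RANKL values, whereas in Slc25a44 both lay above. Both patterns were near their background shares in the set, as given above.

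Genes of transcription and RNA in the top 25 were Polr2j, a subunit of RNA polymerase II, Setd1b, a histone H3 lysine 4 methyltransferase, Foxn3, a forkhead repressor, Ddx6, an RNA helicase of processing bodies, and Tnrc6c, which silences miRNA targets with Argonaute. The Setd1b region (chr5:123150392-123151846) was covered over 1272 and 1070 bp with RANKL, 919 and 1455 bp with RANKL+I-BET and 719 bp with I-BET alone. The Polr2j region (chr5:136116664-136117332) spans the gene start and was covered over 448 and 669 bp with RANKL and 148 and 669 bp with RANKL+I-BET.

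Cell surface and signalling genes in the top 25 were Ptprc, the phosphatase CD45 of blood cells, Stab1, a scavenger receptor of macrophages, Cdc42ep3, an effector of Cdc42, Asap1, a GTPase-activating protein for Arf, Dgke, a diacylglycerol kinase, Pef1, and the actin regulator Wasf2 given above. Ptprc (chr1:138152697-138153193) was covered over 231 and 497 bp with RANKL, 235 and 445 bp with RANKL+I-BET and 497 bp with I-BET alone, and Stab1 (chr14:31165841-31166797) over 957 and 471 bp with RANKL, 254 and 926 bp with RANKL+I-BET and 132 bp with I-BET alone. The group was completed by Mgat1, which starts complex N-glycans, Fanca, of the Fanconi DNA repair pathway, Kif14, a mitotic kinesin, Snx11, a sorting nexin, and Fam234b, Gm52006, Trabd and Gtdc1. For Mgat1, untreated replicate 2 covered 1439 of 1473 bp, the widest cover by that list in the set.

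One gene, Fndc3b, an endoplasmic reticulum protein, was nearest to 3 regions of 858 to 1261 bp, all inside the gene. They were covered over 351 to 724 bp in RANKL replicate 1, 431 to 1210 bp in RANKL replicate 3, 157 to 1071 bp in RANKL+I-BET replicate 1 and 858 to 1149 bp in RANKL+I-BET replicate 3. An untreated peak lay 103, 2237 and 2437 bp from them, and none had a peak in untreated replicate 2. Genes with 2 regions were Abr and Dock10, which regulate small GTPases, Prkch, a protein kinase C, Niban1, a stress-response protein, and Il1rn and Nod2 above. In Dock10 the 2 regions lay 11115 bp apart and RANKL replicate 2 held no peak in either.

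The 13 regions with the same pattern in the libraries numbered 2 lay nearest to Zfp35, Med21, a Mediator subunit, Creb5, Zfp850, Ttc7b, Ppard, a nuclear receptor for fatty acids, Adprh, Mga, Sh2b2, a signalling adaptor, Specc1, Nfkbiz, Id1, an inhibitor of helix-loop-helix factors, and Dhrs7. Covered lengths in RANKL+I-BET replicate 2 ran from 137 bp at Adprh to 786 bp at Sh2b2, where that list covered the whole region. At Ppard (chr17:28232792-28233406), 38 bp from the nearer end of a gene, peaks covered 510 and 429 bp with RANKL, the full 615 bp in both RANKL+I-BET lists, and 615 and 216 bp in RANKL and RANKL+I-BET replicate 2. At Ppard both RANKL+I-BET values of the rule's lists lay above both RANKL values, a pattern near its background share in the set. I-BET alone had no peak there.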

How the data were processed

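H3K27ac was measured in 10 immunoprecipitated libraries of RAW264.7 cells, each with 1 deposited list of broad peaks. Per the submitters' processing notes, FastQC, Bowtie2 and MACS2 were used with mm10 (GRCm38), with no versions given; filters, calling settings and use of the inputs are not given in the sources used here. The authors' deposited score is a whole number derived from the -log10 q. The deposited fold enrichment is a linear ratio, and the deposited p-value and q-value are given as −log10 values. These values are the authors' and only describe, rank or filter peaks.

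The labels gave the groups and the replicate numbers. Consensus regions, overlaps of at least 1 bp, covered length, distances to either end of 21900 protein-coding genes (RefSeq, GRCm38.p6, no strand) and Wilson intervals (95%) were computed with Python 3.11.15, pandas 2.3.3, numpy 2.4.6 and scipy 1.17.1. The nearest gene had to lie within 100 kb. No test between conditions was made, since the rule uses the readout. The members, the 16 gene lists (377 genes) and the rule for named genes were chosen with earlier results of these data known. The rule named the 25 regions with the highest minimum -log10 p over the 4 lists, the 5 widest, list genes, genes nearest to 3 or more regions, 10 regions repeated in the libraries numbered 2, and 5 regions on each side of the boundary; other genes were chosen after their values were seen. Alternatives were other peak thresholds, overlaps, consensus rules, distances and libraries left out. Tested on simulated data, the code found 100 of 100 planted regions and 0 others. A few items are not reported here.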

Additional observations from a re-analysis of the deposited data

How the results depend on the processing

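The number of regions was 101 with peaks of -log10 q of at least 5 (only 4 of the 292 shared), 110 at 1 covered length for the 6 lists (38 shared), 637 with 50% of a region covered (160 shared) and 13 with replicate 2 also required. For those 4 settings the share in the I-BET list was 25.7%, 72.7%, 51.3% and 38.5%, and the share within 1 kb of a gene end 54.5%, 60.0%, 50.9% and 46.2%. For the first 3, untreated replicate 2 held 1.98%, 33.6% and 12.2%, RANKL replicate 2 held 37.6%, 90.9% and 83.8%, and RANKL+I-BET replicate 2 held 12.9%, 12.7% and 3.30%. Regions covered by at least 4 lists numbered 394, with 30.5% at gene ends and 83.5% in RANKL replicate 2. A distance of 5 kb put 47.6% at gene ends.

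Leaving out 1 library gave 354 to 2065 regions, with the highest counts without untreated replicate 3 (2065), untreated replicate 1 (819) and RANKL+I-BET replicate 3 (747). Each of these settings removes 1 condition of the rule and so loosens it, and 96.9% to 100% of the 292 were shared. Shares then ran from 35.7% to 76.1% in the I-BET list, from 29.4% to 59.1% at gene ends, and from 16.1% to 34.5%, 83.8% to 94.4% and 6.78% to 15.5% in untreated, RANKL and RANKL+I-BET replicate 2. No paired analysis was possible because the set comes from no test, so pairing enters only through the ratios within each replicate number; as a replicate block, the pattern within replicate 1 alone was met by 3576 regions and within replicate 3 alone by 1206. Of alternatives added after seeing the data, absence from untreated replicate 2 left 233 regions, and a -log10 q of at least 2 in the RANKL and RANKL+I-BET lists left 89. The RANKL+I-BET to RANKL fold ratio, 1.04 over both numbers, was 1.08 in replicate 1 alone, 0.988 in replicate 3 alone, 0.991 after division by the regions held by all 6 lists and 0.974 for covered length, so it has no steady side of 1. Of 94 alternatives, 55 stayed within the tolerance and 39 moved. The tolerance was 1.5 times for a count and the Wilson interval of the main share, over regions, for a share. For the fold ratio it was 0.0679, the standard deviation between the replicate numbers. The ratios of replicate 1 alone and replicate 3 alone set that tolerance, so they could not leave it. Weighting the overlapping peaks by length gave the main ratio again. The 55 therefore include outcomes that could not move, and their number is no measure of stability. Beyond the looser rule when a library is left out, the cause of the shifts was not tested. Depth is unknown, so absence from a list means only that no peak was listed.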

Other observations

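Values of 9 more genes follow, all picked after their values were seen, from no fixed list and with no count of comparable genes, so they show nothing about a pathway. Tgfbr2 encodes a TGF-beta receptor, Ski a transcriptional repressor, Smad6 an inhibitory Smad and Id1 an inhibitor of helix-loop-helix factors. The Tgfbr2 region (chr9:116152781-116154168) was covered over 1204 and 513 bp in RANKL replicates 1 and 3, 896 and 1093 bp in RANKL+I-BET replicates 1 and 3 and 853 bp with I-BET alone. Another gained region of 94 bp in Tgfbr2 was absent from both RANKL+I-BET lists. The Ski region (chr4:155200630-155201592) was covered over 677 and 518 bp with RANKL and 760 and 963 bp with RANKL+I-BET. The Smad6 region (chr9:63988987-63989775) was covered over 756 and 665 bp with RANKL and 742 and 781 bp with RANKL+I-BET, and all 4 lists outside the rule held it, untreated replicate 2 included (267 bp). The Id1 region (chr2:152735370-152736829) overlapped an end of the gene, was covered over 705 and 1460 bp with RANKL and 1255 and 1375 bp with RANKL+I-BET, and had no peak with I-BET alone or in untreated replicate 2.

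The region at Traf5, an adaptor of TNF receptors, lay 31 bp from the nearer end of a gene and was covered over 528 and 445 bp with RANKL, 469 and 410 bp with RANKL+I-BET and 147 bp in untreated replicate 2. The region at Nkrf, a repressor of NF-kB targets, lay 5 bp from the nearer end of a gene and was covered over 495 and 551 bp with RANKL and 476 and 377 bp with RANKL+I-BET. Hivep2, a zinc finger protein that binds kB sites, was covered over 345 and 271 bp with RANKL and 389 and 289 bp with RANKL+I-BET. None of these 3 regions had a peak with I-BET alone. The retinoic acid receptor gene Rara was covered over 716 and 326 bp with RANKL and 563 and 285 bp with RANKL+I-BET. A region lay 52263 bp from Nfe2l2, which encodes the antioxidant factor NRF2. It was covered over 404 and 568 bp with RANKL, 276 and 484 bp with RANKL+I-BET and 236 bp in untreated replicate 2. Both RANKL+I-BET values lay above both RANKL values at Ski and under both at Nkrf, patterns near their background shares in the set. At the other 7 genes the values with and without I-BET overlapped. No test was made.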
